A study of Mus musculus with 8 samples.

Results

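The Enpp genes encode the ectonucleotide pyrophosphatase/phosphodiesterases, and the 6 members Enpp1 to Enpp6 were followed here by their gene symbols, as 6 of the 24346 genes with measured expression. The family was chosen from the fall of Enpp6 between the genotypes of this same data set, so the values of Enpp6 in that comparison are given as a description and were not tested. The other 5 members were taken with it as relatives of the same family, with earlier results of these data known. RNA-seq was performed on 8 samples of cultured immature oligodendrocytes (iOLs), 4 labelled WT and 4 labelled KO. They are called Med23+/+ and Med23-/- here, as in the study. Both kinds of culture were grown from oligodendrocyte precursor cells (OPCs) that were immunopanned with a CD140a antibody from mouse brain at postnatal day 7, expanded with PDGF-AA and NT-3, and induced for 1 day with 15 nM T3, the active thyroid hormone, and 10 ng/ml ciliary neurotrophic factor. The study describes its conditional knockout mice as Med23 fl/fl;Olig1-Cre, in which Cre acts in cells of the oligodendrocyte lineage, and their control littermates as Med23 fl/fl without Cre. By that description the floxed alleles were shared by both groups and Cre was present only in the Med23-/- group, so the presence of Cre and the loss of Med23 cannot be told apart. Nothing in the labels says whether the replicates came from separate animals or separate cultures, so the p-values measure the spread between these libraries.

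Family members share a catalytic domain that faces the outside of the cell or is secreted, and they cut phosphodiester or pyrophosphate bonds in nucleotides or in lipids. Enpp2, also called autotaxin, is a secreted lysophospholipase D that makes the signalling lipid lysophosphatidic acid (LPA) from lysophosphatidylcholine. Enpp6 is a choline-specific glycerophosphodiesterase on the cell surface, which releases phosphocholine from glycerophosphocholine and lysophosphatidylcholine, and its transcript is widely used as a marker of newly formed oligodendrocytes. Enpp1 and Enpp3 split extracellular ATP into AMP and pyrophosphate, Enpp4 is a membrane enzyme that also acts on nucleotides, and Enpp5 is less well characterised.

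Levels are given in FPKM, a count of sequenced fragments scaled by transcript length and by library size, which allows different genes to be set side by side. Read counts were not used here, so absolute depth is unknown. The lowest values of each library were set against those of the same genes in Med23+/+ replicate 1. By their most common ratio, 1 read was worth between 0.741 and 1 times its worth in Med23+/+ replicate 1 across the 8 libraries. Between 15941 and 16469 genes were above 0. Med23 itself (chromosome 10, 24869986 to 24913681, GENCODE vM21 on mm10) had 12.2 to 12.7 FPKM in the Med23+/+ libraries and 7.93 to 8.49 FPKM in the Med23-/- libraries. The Med23 transcript was thus lower in every Med23-/- library, at 65.8% of the Med23+/+ mean (log2 fold change -0.55, limma adjusted p = 0.000353). This gene-level value does not show how much Med23 protein was left. The study checked the deletion by western blot of OPC lysates from its conditional knockout mice. Among transcription factor genes that mark the oligodendrocyte lineage, Olig1 averaged 706 ± 169.8 and 686 ± 108 FPKM in the Med23+/+ and Med23-/- groups. Olig2 averaged 260 ± 33.7 and 380 ± 104 FPKM and Sox10 255 ± 23.1 and 183 ± 32.4 FPKM (SD, n = 4 each). Cells of the labelled lineage were thus present in both groups. Sox10 was lower in Med23-/- iOLs (log2 fold change -0.49, limma adjusted p = 0.0203), while Olig1 and Olig2 did not pass (limma adjusted p = 0.951 and 0.0621).

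The genotypes were compared gene by gene with limma on log2(FPKM + 1). All 12328 genes whose mean reached 1 FPKM entered this fit, and the Benjamini-Hochberg adjustment ran over all of them. On this scale the changes of genes near 1 FPKM are understated. Of the 6 members, Enpp2, Enpp4, Enpp5 and Enpp6 passed the filter on low values. Enpp1 and Enpp3 lay below it and were each examined with the exact permutation test (two-sided, 4 against 4), whose smallest p is 0.0286.

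The promoters of the members differed in base composition. RefSeq promoter windows of 300 bases (250 before and 50 after the start of transcription, build GRCm38.p6) were matched for 4 members, Enpp1, Enpp3, Enpp4 and Enpp6. The windows of Enpp6, the member with the largest difference between the genotypes, and of Enpp4, a member near it in level in the Med23-/- iOLs, are shown because they differ most from each other in GC content. The Enpp6 window lies at chr8:46986637-46986936 on the plus strand and the Enpp4 window at chr17:44105760-44106059 on the minus strand. Capitals mark matches to GGGCGG, the core of the GC box that Sp1 binds, or to AACAATG, a form of the site bound by SOX factors, on either strand.
Enpp6: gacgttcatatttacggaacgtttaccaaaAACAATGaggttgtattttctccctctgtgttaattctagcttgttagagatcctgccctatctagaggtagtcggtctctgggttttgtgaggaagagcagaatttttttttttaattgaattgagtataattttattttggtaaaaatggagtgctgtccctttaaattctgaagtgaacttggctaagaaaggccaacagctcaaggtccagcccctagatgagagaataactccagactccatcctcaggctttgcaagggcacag
Enpp4: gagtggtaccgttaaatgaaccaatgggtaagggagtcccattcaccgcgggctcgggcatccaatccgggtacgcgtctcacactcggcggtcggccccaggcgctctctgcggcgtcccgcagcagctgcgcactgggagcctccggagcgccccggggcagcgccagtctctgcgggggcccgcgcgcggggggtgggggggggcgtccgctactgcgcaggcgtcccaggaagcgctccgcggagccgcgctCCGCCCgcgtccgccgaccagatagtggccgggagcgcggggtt

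The Enpp6 window had a GC content of 40.3% with 4 CpG dinucleotides, and 10.7% of the 32851 mouse promoter windows had a lower GC content. The Enpp4 window had a GC content of 73.7% with 41 CpG dinucleotides, above 94.9% of the windows. Enpp1, at 61.7%, resembled Enpp4 more closely, and Enpp3, at 40.7%, resembled Enpp6. The letters GGGCGG were found in the windows of Enpp1 and Enpp4, in 1 place each, and not in those of Enpp3 and Enpp6, whereas 35.7% of all windows held them on either strand. A match to AACAATG was present only in the Enpp6 window among the 4, 220 bases before the start, and 3.78% of all windows held one. These letters were chosen after the Enpp6 sequence was read, and a match in 300 bases is a description of the sequence and not a binding site.

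Enpp6 was the member whose level differed most between the genotypes. It had 49.0, 56.9, 62.6 and 46.2 FPKM in Med23+/+ replicates 1 to 4 and 3.89, 7.72, 5.76 and 1.24 FPKM in Med23-/- replicates 1 to 4. The genotypes did not overlap, and the lowest Med23+/+ library stood 5.99 times above the highest Med23-/- library. The mean was 53.7 ± 7.48 FPKM for Med23+/+ and 4.65 ± 2.76 FPKM for Med23-/- iOLs (SD, n = 4 each), an 11.5-fold difference and a log2 fold change of -3.43 (standard error 0.35). Of the 12328 genes, 9 had a lower log2 fold change. Transcripts of Enpp6 were still present in the Med23-/- cultures, at 8.67% of the Med23+/+ mean, and spread over a wider relative range there.

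Within the Med23-/- group the highest Enpp6 value was 6.23 times the lowest, against 1.35 times within the Med23+/+ group. The coefficients of variation were 59.3% and 13.9%. Med23-/- replicate 4, at 1.24 FPKM, was the lowest of all libraries. Without it the Med23-/- mean was 5.79 ± 1.91 FPKM (SD, n = 3), which was 9.27-fold below the Med23+/+ mean, with a log2 fold change of -3.04. The gene spans chromosome 8, 46986887 to 47096762, on the plus strand.

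**Figure D1:**
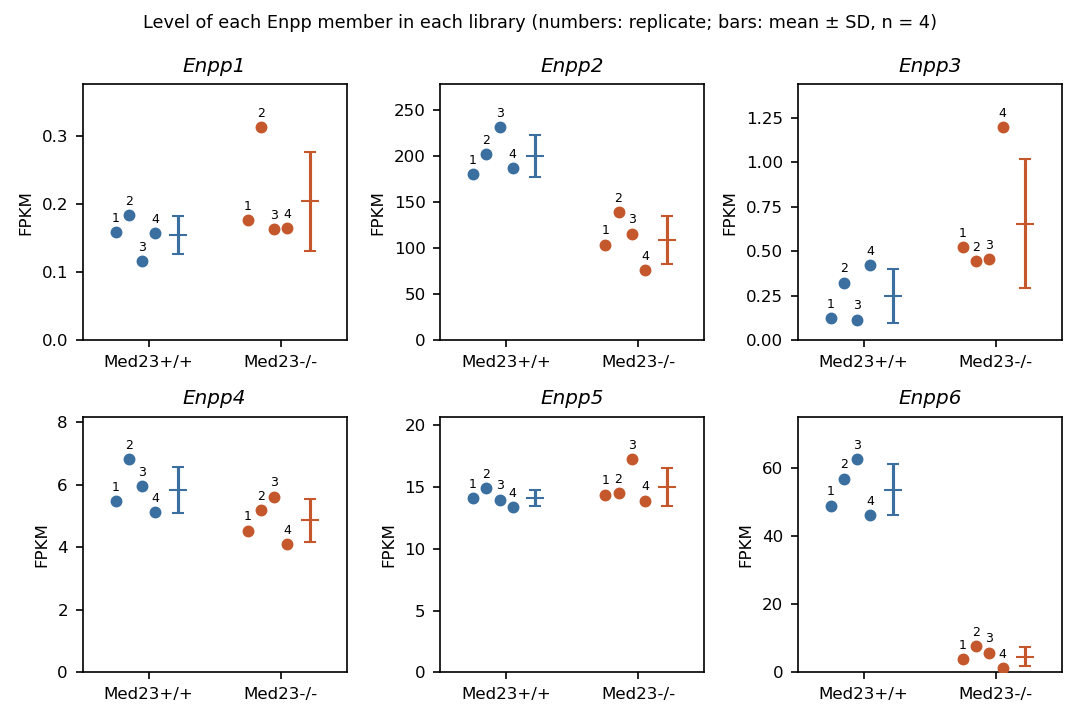
Level of each Enpp member in FPKM (vertical axes, each from 0 with its own scale) in the 4 Med23+/+ libraries (blue) and the 4 Med23-/- libraries (orange). Points are single libraries numbered by replicate and bars are the mean ± SD. Enpp6 and Enpp2 show no overlap between the genotypes, with Enpp6 between 46.2 and 62.6 FPKM in Med23+/+ and between 1.24 and 7.72 FPKM in Med23-/-. Enpp3, at much lower levels, shows none either, while the ranges of Enpp1, Enpp4 and Enpp5 overlap.

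Enpp2, the gene of autotaxin, fell in Med23-/- iOLs and remained the most abundant member in every library. It had 180.4, 203, 232 and 187 FPKM in Med23+/+ replicates 1 to 4 and 104, 139, 116 and 76.2 FPKM in Med23-/- replicates 1 to 4. Every Med23-/- library lay below every Med23+/+ library. The mean was 201 ± 22.9 FPKM for Med23+/+ and 109 ± 26.2 FPKM for Med23-/- iOLs (SD, n = 4 each), so that 54.3% of the level was left. The log2 fold change was -0.90 (standard error 0.17, 95% interval -1.27 to -0.53, limma adjusted p = 0.00329). Among the 3 tested members other than Enpp6, Enpp2 was thus the only gene lower by limma adjusted p, where 14.1% of all genes tested were lower by that rule and 15.3% had every Med23-/- library below every Med23+/+ library. The size of the change was less common, since 2.48% of the genes tested had a fall at least as large.

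Enpp2 (chromosome 15, 54838901 to 54952892, minus strand) kept its direction and a limma adjusted p of at most 0.0115 whichever single library was left out. Its log2 fold change then ran from -1.03 without Med23-/- replicate 2 to -0.74 without Med23-/- replicate 4.

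Enpp4 and Enpp5, which are neighbours on chromosome 17, did not pass the test. Enpp4 (44096308 to 44105809, minus strand) measured 5.47, 6.81, 5.96 and 5.12 FPKM across Med23+/+ replicates 1 to 4, against 4.54, 5.18, 5.62 and 4.099 FPKM across Med23-/- replicates 1 to 4. The ranges overlapped, with means of 5.84 ± 0.733 and 4.86 ± 0.674 FPKM (SD, n = 4 each). The log2 fold change was -0.22 (95% interval -0.48 to 0.03, limma adjusted p = 0.170), so these data allow a fall of that size or no difference.

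Enpp5 (44078813 to 44086567, plus strand) had the smallest coefficient of variation of the members in Med23+/+ iOLs (4.52%), with 14.1, 14.9, 13.9 and 13.3 FPKM. The Med23-/- libraries had 14.4, 14.5, 17.2 and 13.9 FPKM, and the highest value, in replicate 3, stood above all the others. The means were 14.1 ± 0.635 and 15.0 ± 1.51 FPKM (SD, n = 4 each), which differed by 0.08 on the log2 scale (95% interval -0.11 to 0.27, limma adjusted p = 0.503). The interval leaves room for a small change in either direction. The 2 genes lie 9.74 kb apart on opposite strands.

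Whether the tested members differed from each other in their change was examined through the log2 ratio of each pair within a library, for the 3 pairs among Enpp2, Enpp4 and Enpp5. The ratio of Enpp2 to Enpp5 was 3.74 ± 0.16 in Med23+/+ and 2.75 ± 0.33 in Med23-/- libraries on the log2 scale (SD, n = 4 each), a difference of -0.98. For Enpp2 against Enpp4 the difference was -0.68. For Enpp4 against Enpp5 it was -0.31, from -1.14 ± 0.10 to -1.45 ± 0.09 (SD, n = 4 each). Each of the 3 differences had the smallest p that the exact permutation test allows (two-sided, p = 0.0286, and 0.0286 when adjusted over the 3 pairs). In these libraries Enpp2 was thus lower relative to both other members, and Enpp4 relative to its genomic neighbour Enpp5. Neither Enpp4 nor Enpp5 passed the test alone. This p states only that the 4 ratios of each genotype did not overlap. The 3 pairs come from 3 genes and are not independent. How often pairs of other genes separate likewise was not examined. Of the single genes tested, 15.3% had every Med23-/- library below every Med23+/+ library.

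Enpp1 and Enpp3, the ATP-cleaving members, were barely detected in either genotype. Enpp1 measured 0.159, 0.184, 0.116 and 0.157 FPKM across Med23+/+ replicates 1 to 4, against 0.176, 0.313, 0.163 and 0.164 FPKM across Med23-/- replicates 1 to 4. The ranges overlapped, and 3 of the Med23-/- values lay within the Med23+/+ range (log2 fold change 0.06, two-sided exact permutation test, p = 0.286).

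Enpp3 measured 0.123, 0.324, 0.116 and 0.421 FPKM across Med23+/+ replicates 1 to 4, against 0.521, 0.444, 0.456 and 1.197 FPKM across Med23-/- replicates 1 to 4. Every Med23-/- library lay above every Med23+/+ library, but the gap between the nearest values was small next to the spread. The means were 0.246 ± 0.152 and 0.654 ± 0.363 FPKM (SD, n = 4 each), which differed by 0.39 on log2(FPKM + 1) (two-sided exact permutation test, p = 0.0286). Among the 6101 genes that were above 0 in some library but had a mean under 1 FPKM, 6.72% had every Med23-/- library above every Med23+/+ library. When all genes above 0 in at least 1 library were fitted together, the limma adjusted p of Enpp3 was 0.0947 and it did not pass. Without Med23-/- replicate 4, the highest library, the Med23-/- mean was 0.474 FPKM and the log2 fold change 0.25, and with a pseudocount of 0.1 FPKM and all libraries the log2 fold change was 1.13. At such levels the depth does not allow a firm statement on either gene. A further family member outside the 6, Enpp7, is listed at 0 in all 8 libraries.

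**Figure D2:**
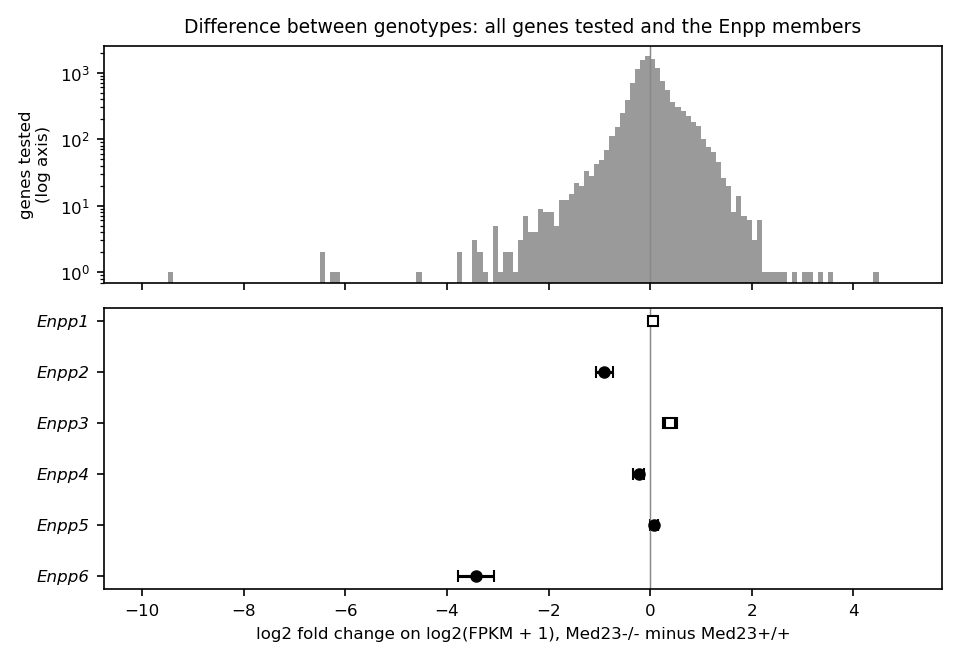
Log2 fold changes on log2(FPKM + 1), Med23-/- minus Med23+/+ (horizontal axis), as a histogram of all 12328 genes tested (top, counts on a log axis) and for each Enpp member with its standard error from limma (bottom). Filled circles are members with a mean of at least 1 FPKM, and open squares are Enpp1 and Enpp3 from the fit of all genes above 0. Enpp6 lies at -3.43 and Enpp2 at -0.90, while the other 4 lie between -0.22 and 0.39.

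The order of the members by level changed between the genotypes through Enpp6. In Med23+/+ iOLs it ran Enpp2, Enpp6, Enpp5, Enpp4, Enpp3 and Enpp1, and each of the first 4 steps in this order held in all 4 libraries without overlap of the ranges. Enpp2 was 3.74 times Enpp6, Enpp6 was 3.82 times Enpp5, Enpp5 was 2.41 times Enpp4 and Enpp4 was 23.7 times Enpp3 in mean FPKM. Enpp3 and Enpp1 overlapped and could not be ordered.

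In Med23-/- iOLs the order was Enpp2, Enpp5, Enpp4, Enpp6, Enpp3 and Enpp1. Here Enpp4 and Enpp6 overlapped, with 2 of the 4 libraries in each order, and did not differ beyond their spread. Enpp2 was 7.27 times Enpp5 and Enpp5 was 3.08 times Enpp4. Among all genes tested, Enpp6 stood above 88.4% of genes in Med23+/+ and above 21.5% in Med23-/- iOLs, whereas Enpp2 stood above 97.4% and 95.3%.

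Summed over the 6 members, expression was 249 to 315 FPKM in the Med23+/+ libraries and 96.8 to 167 FPKM in the Med23-/- libraries. Enpp6 held 19.5% ± 0.835 of this sum in the Med23+/+ and 3.23% ± 1.45 in the Med23-/- iOLs (SD, n = 4 each). The share of Enpp2 was 73.0% ± 1.06 and 80.9% ± 1.95 (SD, n = 4 each). Per library, Enpp2 was 3.56 to 4.05 times Enpp6 in Med23+/+ and 18.0 to 61.6 times Enpp6 in Med23-/- iOLs, with the widest ratio in Med23-/- replicate 4.

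Apart from the step between the genotypes, Enpp2 and Enpp6 also went up and down together among libraries of the same genotype. Each library was expressed as its deviation from its own genotype's mean of log2(FPKM + 1). In the Med23-/- libraries the deviations of Enpp6 were -0.04, 0.79, 0.42 and -1.17 and those of Enpp2 were -0.03, 0.38, 0.12 and -0.48, in the order of the replicates, so both genes ranked the 4 libraries in the same order. In the Med23+/+ libraries they were -0.12, 0.09, 0.23 and -0.20 for Enpp6 and -0.14, 0.02, 0.22 and -0.09 for Enpp2, and both genes were highest in replicate 3.

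Over the 8 libraries the deviations of Enpp2 and Enpp6 had a Pearson correlation of 0.97 and a Spearman correlation of 0.95. Without Med23-/- replicates 4 and 2, the 2 libraries farthest from the median of Enpp6, the Pearson correlation was 0.86 over 6 libraries. By this measure Enpp2 ranked 15 of 12327 genes in likeness to Enpp6. The correlation was 0.74 for Enpp4 and 0.49 for Enpp5 over 8 libraries and 0.82 for each of them over the same 6, so without those 2 libraries Enpp2 was little closer to Enpp6 than they were. Without Med23-/- replicate 4 alone it was 0.94 for Enpp2, 0.64 for Enpp4 and 0.27 for Enpp5. All genes here share the same libraries and their depth, and 164 genes (1.33%) had a correlation of at least 0.9, so the values are given as a description without a test.

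**Figure D3:**
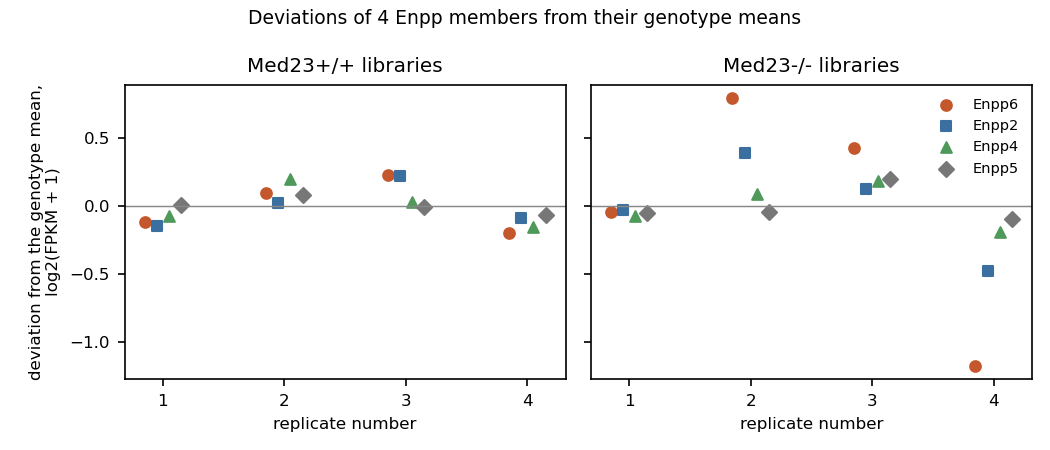
Deviation of Enpp6, Enpp2, Enpp4 and Enpp5 from their genotype mean on log2(FPKM + 1) (vertical axis) in each replicate (horizontal axis), for Med23+/+ (left) and Med23-/- libraries (right). Enpp6 and Enpp2 rank the Med23-/- libraries alike, from -1.17 and -0.48 in replicate 4 to 0.79 and 0.38 in replicate 2.

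Among the genes whose deviations were most like those of Enpp6 were Bivm, Pfkfb2, Arl4a and Chid1, each with a Pearson correlation of at least 0.97 over 8 libraries. Without Med23-/- replicates 4 and 2 the correlations were 0.88, 0.89, 0.89 and 0.78 over 6 libraries, in that order of genes. Arl4a alone of these 4 was lower in Med23-/- iOLs by limma adjusted p (log2 fold change -0.83, adjusted p = 0.00692). Chid1 had means of 6.67 ± 0.250 FPKM in the Med23+/+ and 6.78 ± 1.14 FPKM in the Med23-/- group (SD, n = 4 each). Without subtraction of the genotype means, the genes most like Enpp6 were Epb4.1l2, Itpr2, Cdc37l1, Dixdc1 and Sash1, with Pearson correlations of 0.994 to 0.996. The libraries form 2 clusters by genotype, so these values mainly restate the contrast by which Enpp6 was chosen.

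Enpp1 and Enpp3 lie beside Med23 on chromosome 10. Enpp3 (24772406 to 24842823, minus strand) ends 27.2 kb to the left of Med23, and Enpp1 (24637914 to 24712159, minus strand) lies a further 60.2 kb to the left of Enpp3. Within 600 kb of Med23 there are 5 other protein-coding genes of the table, of which Moxd1, Akap7 and Epb41l2 had a mean of at least 1 FPKM. These 3 were picked by position after the values were known.

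Moxd1 rose from 6.08 ± 1.25 to 21.6 ± 4.82 FPKM (mean ± SD, n = 4 each), a log2 difference of 1.67 (limma adjusted p = 0.000116). Akap7, which encodes a protein kinase A anchoring protein, rose from 5.43 ± 1.05 to 13.2 ± 3.35 FPKM (mean ± SD, n = 4 each), a log2 difference of 1.13 (limma adjusted p = 0.00100). Epb41l2, listed as Epb4.1l2 and encoding a membrane skeleton protein, fell from 171 ± 15.0 to 38.3 ± 12.2 FPKM (mean ± SD, n = 4 each), a log2 difference of -2.18 (limma adjusted p = 9.10e-05). The neighbours of Med23 thus moved in both directions, and Arg1, 1539 bases to its right, had 0.376 and 0.838 FPKM on average with overlapping ranges. The part of the position next to Med23 in the values of Enpp3 was not tested.

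**Figure D4:**
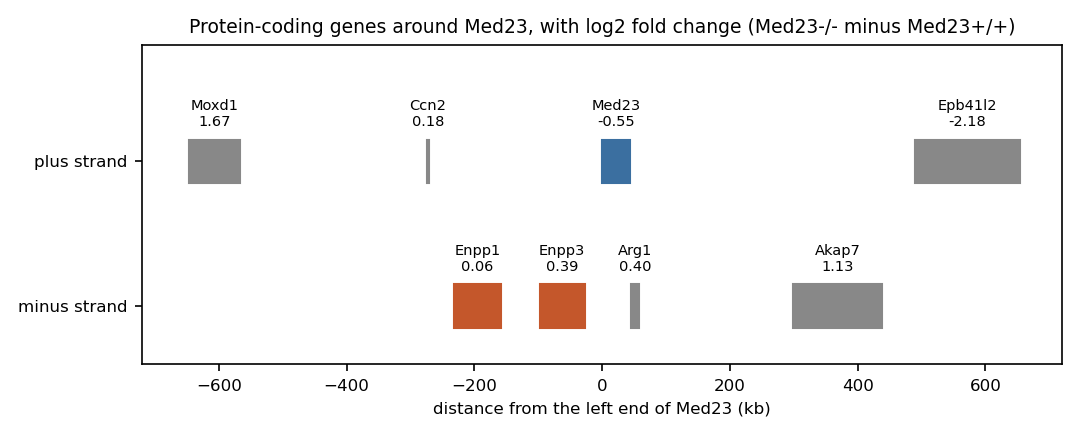
Protein-coding genes around Med23 on both strands, drawn to scale by their distance from the left end of Med23 in kb, with the log2 fold change (Med23-/- minus Med23+/+) under each name. Enpp1 and Enpp3 are in orange and Med23 in blue. Enpp1 lies at 0.06 and Enpp3 at 0.39, while the outer genes lie between -2.18 and 1.67.

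The genes around the reactions of the family were followed in 4 lists, with a list of stage genes beside them. Each count below is read against all genes tested, of which 14.1% were lower and 15.9% were higher in Med23-/- iOLs at the limma threshold of 0.05, with a median log2 fold change of -0.01.

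Among genes of choline and glycerophosphocholine handling, 6 of the 23 tested were lower (26.1%) and 1 was higher (4.35%), with a median log2 fold change of -0.06. The list mixes choline transporters with lysophosphatidylcholine acyltransferases such as Lpcat2 and phosphodiesterases such as Gpcpd1. Its counts are therefore not those of genes that act on the products of Enpp6. Slc44a1, a choline transporter of the plasma membrane, measured 82.4, 81.5, 86.1 and 73.5 FPKM across Med23+/+ replicates 1 to 4, against 42.0, 49.3, 36.9 and 27.9 FPKM across Med23-/- replicates 1 to 4. The genotypes did not overlap (log2 fold change -1.06 with standard error 0.15, limma adjusted p = 0.000797). Slc5a7, the high-affinity choline transporter, was low in level and fell from 2.86 ± 0.216 to 1.19 ± 0.353 FPKM (mean ± SD, n = 4 each), a log2 difference of -0.83 (limma adjusted p = 0.00179).

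Lpcat2, a lysophosphatidylcholine acyltransferase that acts on a substrate of Enpp6 and Enpp2, was lower, at 3.96 ± 0.614 against 2.03 ± 0.929 FPKM (mean ± SD, n = 4 each), a log2 difference of -0.75 (limma adjusted p = 0.0227). Its adjusted p rose to between 0.0503 and 0.0583 without Med23+/+ replicate 1, 3 or 4 or Med23-/- replicate 4. Pcyt1b, which encodes an enzyme that activates phosphocholine with CTP, was the 1 gene of the list that rose, from 4.70 ± 0.517 to 9.83 ± 1.27 FPKM (mean ± SD, n = 4 each), a log2 difference of 0.92 (limma adjusted p = 0.000291). The glycerophosphocholine phosphodiesterase gene Gpcpd1 was at 63.3 ± 9.45 and 59.8 ± 12.8 FPKM (SD, n = 4 each) and did not pass (log2 fold change -0.09, limma adjusted p = 0.690).

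Among LPA receptors, lipid phosphatases and phosphatase-related Lppr genes, 1 of the 10 tested was lower (10%) and 4 were higher (40%), with a median log2 fold change of 0.22. The receptors and phosphatases, which receive or remove the product of Enpp2, made up 5 of these 10, with 1 lower and 2 higher, and the Lppr genes made up the other 5, with 2 higher. The receptor genes Lpar1, Lpar2, Lpar3 and Lpar5 had a mean under 1 FPKM and were not tested. Of these, Lpar3 had 0 to 0.121 FPKM in the Med23+/+ and 0.191 to 0.874 FPKM in the Med23-/- libraries, without overlap. Such an upward separation was found in 6.72% of the genes above 0 with a mean under 1 FPKM. The ranges of Lpar1, Lpar2 and Lpar5 overlapped. Lpar4 did not pass (log2 fold change -0.16, limma adjusted p = 0.540). Lpar6, an LPA receptor gene, measured 1.88, 2.74, 2.96 and 3.21 FPKM across Med23+/+ replicates 1 to 4, against 4.28, 4.11, 6.07 and 5.99 FPKM across Med23-/- replicates 1 to 4. The genotypes did not overlap (log2 fold change 0.72, limma adjusted p = 0.00767).

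Among the 3 LPA phosphatase genes, 1 fell, 1 rose and Ppap2a (now Plpp1) did not pass (log2 fold change 0.19, limma adjusted p = 0.210). Ppap2c (now Plpp2) fell from 4.20 ± 0.254 to 0.995 ± 0.137 FPKM (mean ± SD, n = 4 each), a log2 difference of -1.38 (limma adjusted p = 2.89e-05), and Ppap2b (now Plpp3) rose from 30.0 ± 2.08 to 52.3 ± 2.82 FPKM (mean ± SD, n = 4 each), a log2 difference of 0.78 (limma adjusted p = 0.000118). Lppr4, which encodes a protein related to these phosphatases, rose from 1.64 ± 0.215 to 4.43 ± 2.13 FPKM (mean ± SD, n = 4 each). This was a log2 difference of 0.95 (limma adjusted p = 0.0200). With single libraries left out, its limma adjusted p reached 0.0488, without Med23+/+ replicate 3.

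In a list drawn up around the substrates and products of Enpp1 and Enpp3, nucleotides and pyrophosphate, 2 of the 13 tested were lower (15.4%). Another 2 were higher (15.4%), and both shares lay near those of all genes. The list took Entpd1 to Entpd8 as a family, without regard to where each enzyme acts. Its counts therefore do not stand for extracellular reactions alone. Entpd1, which encodes the ectonucleotidase CD39, rose from 1.42 ± 0.266 to 5.27 ± 0.674 FPKM (mean ± SD, n = 4 each), a log2 difference of 1.37 (limma adjusted p = 6.73e-05). The channel gene Panx1, whose product releases ATP, rose by 0.43 on the log2 scale (limma adjusted p = 0.00620). Entpd6 was lower (log2 fold change -0.46, limma adjusted p = 0.00654). So was Entpd7 (log2 fold change -0.34, limma adjusted p = 0.0202), which lost the call without Med23+/+ replicate 3 or 4 or Med23-/- replicate 1 (limma adjusted p 0.0501 to 0.0580). Nt5e, which encodes CD73, and Ank, a pyrophosphate exporter gene, did not pass, with log2 fold changes of -0.20 and 0.07.

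Of the adenosine and P2 receptor genes, 8 of 18 reached a mean of 1 FPKM, and 2 were lower and 2 higher. The 2 higher genes were the adenosine receptor genes Adora1 and Adora2b. Adora1 measured 1.75, 2.18, 1.90 and 1.99 FPKM across Med23+/+ replicates 1 to 4, against 6.21, 3.97, 5.67 and 10.1 FPKM across Med23-/- replicates 1 to 4, without overlap (log2 fold change 1.28, limma adjusted p = 0.00163). Adora2b was at 0.830 ± 0.268 and 2.01 ± 0.188 FPKM (mean ± SD, n = 4 each), a log2 difference of 0.73 (limma adjusted p = 0.00333). Its Med23+/+ mean was under 1 FPKM, so it passed the filter through the Med23-/- libraries, and its limma adjusted p was 0.00325 in the fit of all genes above 0.

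The ATP receptor genes P2rx7 and P2ry2 were lower, with log2 fold changes of -0.66 and -0.64 (limma adjusted p = 0.0225 and 0.0348). Neither call held in every fit. P2rx7 lost its call without Med23+/+ replicate 4 or Med23-/- replicate 1 or 3 (limma adjusted p 0.0539 to 0.0632), and P2ry2 lost it in all fits that left out a library but those without Med23-/- replicate 1 or 2, with a limma adjusted p of up to 0.0773. With all libraries kept, P2ry2 also lost it with a pseudocount of 0.1 FPKM (limma adjusted p = 0.0514) and in the fit of all genes above 0 (limma adjusted p = 0.0501).

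**Figure D5:**
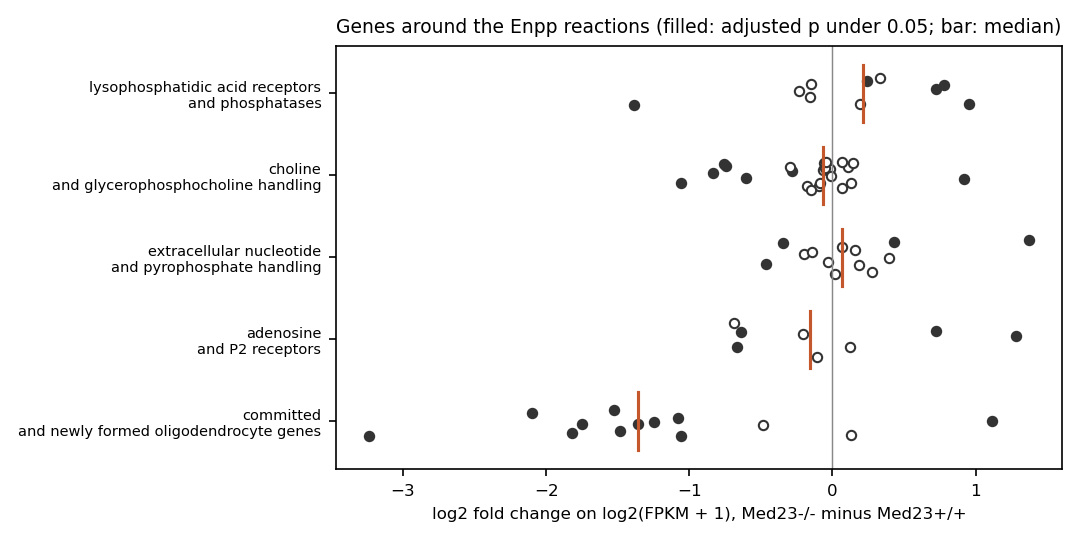
Log2 fold change on log2(FPKM + 1), Med23-/- minus Med23+/+ (horizontal axis), of each tested gene in 5 lists (rows). Filled points have a limma adjusted p under 0.05, open points do not, and bars mark the median of each list. The median is -1.36 for the stage genes and between -0.16 and 0.22 for the other 4 lists.

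The stage at which Enpp6 is a marker was described by 15 genes of committed precursors and newly formed oligodendrocytes, of which 13 were tested. Of these 13, 10 were lower (76.9%) and 1 was higher, with a median log2 fold change of -1.36. Since Enpp6 was known to fall when the list was written, the list is not independent evidence of a direction. Bmp4, a secreted ligand gene, had a log2 fold change of -3.24 (43.0 ± 3.30 to 4.37 ± 2.70 FPKM, SD, n = 4 each), close in size to that of Enpp6. Sirt2, which encodes a deacetylase of myelinating cells, fell by 2.10 and the homeobox gene Nkx2-2 fell by 1.82 on the log2 scale (limma adjusted p = 4.69e-05 and 2.94e-05), and Tmem2 rose by 1.12 on the same scale (limma adjusted p = 0.000503). Casr and Opalin had a mean under 1 FPKM, and Rras2 and Lims2 did not pass. The precursor genes Pdgfra (log2 fold change 1.47, limma adjusted p = 2.33e-05) and Cspg4 (1.39, limma adjusted p = 0.000141), named after their values were seen, were higher, and the myelin genes Cnp (-1.23, limma adjusted p = 0.00131) and Mbp (-2.19, limma adjusted p = 2.89e-05) were lower. The part of the stage of the cells in the values of the Enpp members was not tested.

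Markers of other cell types were examined in the same libraries. All 5 neuron markers (Snap25, Syt1, Rbfox3, Stmn2 and Tubb3) were higher in Med23-/- iOLs, and their summed level was 35.4 to 57.5 FPKM in the Med23+/+ and 73.4 to 144 FPKM in the Med23-/- libraries. The 5 astrocyte markers summed to 27.5 to 71.6 and 24.4 to 44.1 FPKM, and 2 of them were lower and 1 higher. Microglia markers summed to at most 1.74 FPKM, endothelial markers to at most 2.97 FPKM, choroid plexus markers to at most 3.48 FPKM and mural and fibroblast markers to at most 16.2 FPKM in any library. Of the choroid plexus markers Folr1 is listed at 0 in all libraries, and of the microglia markers P2ry12 had means of 0.851 and 0.978 FPKM and the other 4 had group means of at most 0.212 FPKM. In bulk RNA, fewer cells of a type and less RNA per cell cannot be told apart, and the part of the neuron markers in the values of the Enpp members was not tested.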

How the data were processed

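RNA-seq was performed on 8 iOL libraries, 4 per genotype. Reads were trimmed by the authors (Cutadapt), mapped against mm10 by Tophat2 with its defaults, and summarised per gene by cuffdiff with the options -b and -u. Tool versions and the gene annotation are not given in the sources used here. The deposited FPKM values, 1 column per library, were used as they stand, and 0 columns of unmatched samples were left out. The deposited table also holds pooled means and the authors' own fold changes, p-values and q-values, which were not used.

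Genes whose mean reached 1 FPKM were tested by limma 3.58.1 under R 4.3.3 (lmFit, eBayes with a mean-variance trend) on log2(FPKM + 1), with Benjamini-Hochberg adjustment and a threshold of 0.05. The fit was tested on simulated data. Single genes below the filter and log2 ratios were compared by two-sided exact permutation tests. Lists were described by counts and medians.

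Members, gene lists and tests were chosen with earlier results of these data known. The genes named are the 6 members, Med23, at most 3 falling and 3 rising genes per list, the 5 most like Enpp6 by each of 2 correlations, and those said to be chosen later. Enpp7, Gpcpd1, Lpcat1, Lpcat3, Lpcat4, Nt5e, Ank, Rras2 and Lims2 were added for their roles after their values were seen. So were Olig2, 5 LPA receptor genes, Ppap2a, P2ry12 and the genes listed as untested. The split of the LPA list and the fit of named genes without a filter were added after the data were seen. Some results under these rules are not reported here. Older symbols of the table were matched to current ones. The alternatives were another pseudocount, other filters, quantile or median-ratio scaling, no trend, a replicate block, a covariate for replicates 1 and 2 against 3 and 4, and leaving out each library. Gene coordinates came from GENCODE vM21 on mm10 and promoter sequences from RefSeq (GRCm38.p6). Python 3.11.15, numpy 2.4.6, pandas 2.3.3, scipy 1.17.1 and matplotlib 3.10.9 were used.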

Additional observations from a re-analysis of the deposited data

Results flagged for a closer look

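A part of the genes named was examined, in 54 groups of 4 libraries. Among these groups, 3 held a library far from the other 3, where chance at 1 in 20 gives 2.7. Enpp1 in Med23-/- replicate 2 stood at 0.313 FPKM, above 0.163 to 0.176 FPKM in the other Med23-/- libraries. Enpp3 in Med23-/- replicate 4 stood at 1.197 FPKM, above 0.444 to 0.521 FPKM in the others. Nkx2-2 in Med23+/+ replicate 2 stood at 219 FPKM, below 259 to 267 FPKM in the other Med23+/+ libraries.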

How the results depend on the processing

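Enpp2 stayed lower with a limma adjusted p under 0.05 under all 16 alternatives, and Enpp4 and Enpp5 passed under none of those that were run. Over the 8 settings that kept all libraries the log2 fold change of Enpp2 ran from -0.92 to -0.80. That of Enpp6 ran from -3.75 with a pseudocount of 0.1 FPKM to -3.43. With each library left out they ran from -1.03 to -0.74 for Enpp2, from -0.29 to -0.16 for Enpp4, from 0.02 to 0.11 for Enpp5 and from -3.69 to -3.04 for Enpp6.

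Enpp3 did not pass when all genes above 0 were fitted (log2 fold change 0.39, limma adjusted p = 0.0947), and with a library left out its log2 fold change ran from 0.25 to 0.46, where 3 against 4 values allow no exact permutation p below 0.0571. With a pseudocount of 0.1 FPKM the log2 fold change was 1.13 for Enpp3 and 0.24 for Enpp1, since the pseudocount of 1 FPKM damps changes at such low levels. Enpp1 and Enpp3 were not run under the replicate block, the covariate, quantile normalization, the lack of a trend or the stricter filter. The correlation of Enpp5 with Enpp6 over 8 libraries was -0.27 and became 0.49 with each genotype's mean subtracted. Of all genes tested, 1957 were higher, and 1281 at a mean of at least 5 FPKM, where fewer genes were tested. Past 2-fold, 367 were higher, and 654 with a pseudocount of 0.1 FPKM, which raises the fold change of low genes by construction.

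Whether the replicate numbers pair the samples is not known, and correlations of deviations cannot settle it. Between same-numbered libraries they were 0.13, -0.10, -0.03 and 0.16, and not every library correlated best with its own number. Med23+/+ replicate 4 stood at -0.18 and -0.14 with Med23-/- replicates 1 and 2 and at 0.14 and 0.16 with 3 and 4. Replicate 1 showed the reverse, and replicates 2 and 3 no such split. With a covariate for replicates 1 and 2 against 3 and 4, 1849 genes were lower and 2094 higher, against 1738 and 1957 without it. With the replicate block 1835 genes were lower and 2085 higher, and the limma adjusted p was 0.00290 for Enpp2, 0.0924 for Enpp4 and 0.479 for Enpp5, with the log2 fold changes of the fit without the block (-0.90, -0.22 and 0.08). Absolute depth is unknown and limits what can be said of Enpp1 and Enpp3.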
